A study of Mus musculus with 20 samples.

Results

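Nkx2-1, Dlx1, Dlx2, Dlx5, Dlx6, Lhx6, Lhx8 and Six3 are 8 transcription factor genes of the ventral and anterior forebrain, and their transcripts were followed through neuronal differentiation of control and HPRT knockdown cells. The 8 genes were found by their symbols in each of the 28 deposited tables, among the 37561 genes that the tables shared. Nkx2-1 was chosen by its knockdown to control ratio, the highest mean among the 13610 genes past a filter on low values given below. The other 7 were listed with it as ventral forebrain factors when the ratios were known. The ratios of the members are therefore a description with no test. The cells were mouse ESD3 embryonic stem cells of strain 129s2/SvPas, a line kept on mouse embryo fibroblast feeders. The control line carried a short hairpin RNA against luciferase and the HPRT knockdown line 1 against HPRT, both delivered by a viral vector with puromycin selection. Both were grown as spherical neural masses and driven toward dopaminergic neurons, with sonic hedgehog and FGF8 among the reagents. RNA was sequenced on each day from 0 to 4 and on every other day from 6 to 14, with 1 library per line and day, hence 10 libraries per line and 20 in all. Each line was made once, and RNAs from a time point had been pooled before sequencing, so the spread given below is over days of 1 line pair and not over separate cultures. In these bulk samples fewer cells of a type and less RNA per cell cannot be told apart.

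Nkx2-1 is a homeodomain factor that specifies the medial ganglionic eminence and parts of the hypothalamus, and it also acts in lung and thyroid. In the ventral telencephalon it is induced by sonic hedgehog and lies upstream of the LIM homeodomain factors Lhx6, needed for cortical interneurons, and Lhx8, needed for cholinergic neurons of the basal forebrain. The Dlx genes are homeodomain factors of GABAergic progenitors and migrating interneurons, and they lie in the genome as linked pairs. Six3 is an early factor of the anterior neural plate and the eye field, which restrains Wnt signalling there.

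The members lie on 5 chromosomes of the mm9 mouse genome (NCBIM37), the build the authors aligned to, with coordinates from the GENCODE annotation of that build. Nkx2-1 (Gene ID 21869) lies at chr12:57632922-57637895 on the minus strand. Dlx1 (13390, chr2:71366170-71372038, plus strand) and Dlx2 (13392, chr2:71381466-71384811, minus strand) are 9427 bases apart. Dlx6 (13396, chr6:6813334-6818568, plus strand) and Dlx5 (13395, chr6:6827805-6832085, minus strand) are 9236 bases apart. Lhx6 (16874) lies at chr2:35937470-35960928 on the minus strand, Lhx8 (16875) at chr3:153969260-153993615 on the minus strand and Six3 (20473) at chr17:86012948-86031153 on the plus strand. Of the 8 members 6 matched an entry in a table of RefSeq promoters on build GRCm38.p6, which is not the build of the files. The 250 bases before the gene start are shown for Nkx2-1, the member with the highest ratio, for Six3, the member with the next highest, and for the linked genes Dlx1 and Dlx2, whose ratios moved most alike. Letters are lower case, 5′ to 3′ in the direction of the gene, and capitals mark matches to the motifs described after them.
Nkx2-1, chr12:56536909-56537158, minus strand: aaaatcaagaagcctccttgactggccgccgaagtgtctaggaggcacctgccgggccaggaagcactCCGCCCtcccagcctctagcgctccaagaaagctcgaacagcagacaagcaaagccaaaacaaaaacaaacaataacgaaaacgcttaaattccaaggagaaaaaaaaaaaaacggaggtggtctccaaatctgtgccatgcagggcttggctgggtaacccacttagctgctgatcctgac
Six3, chr17:85620584-85620833, plus strand: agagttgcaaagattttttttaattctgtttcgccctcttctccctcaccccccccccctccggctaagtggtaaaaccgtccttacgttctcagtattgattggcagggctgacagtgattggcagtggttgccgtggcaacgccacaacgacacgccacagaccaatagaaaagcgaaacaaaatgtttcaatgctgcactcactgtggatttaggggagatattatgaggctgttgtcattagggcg
Dlx1, chr2:71529195-71529444, plus strand: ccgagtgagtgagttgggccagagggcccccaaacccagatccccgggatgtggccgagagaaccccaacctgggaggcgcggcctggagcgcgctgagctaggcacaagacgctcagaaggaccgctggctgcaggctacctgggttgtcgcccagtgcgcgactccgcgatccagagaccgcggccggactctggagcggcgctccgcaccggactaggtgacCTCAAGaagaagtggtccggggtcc
Dlx2, chr2:71546755-71547004, minus strand: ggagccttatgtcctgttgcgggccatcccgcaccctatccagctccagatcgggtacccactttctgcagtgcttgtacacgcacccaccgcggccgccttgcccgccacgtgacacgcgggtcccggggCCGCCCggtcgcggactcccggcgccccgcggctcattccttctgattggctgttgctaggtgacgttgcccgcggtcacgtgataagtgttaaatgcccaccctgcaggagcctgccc
The motifs searched on both strands were TAATTA, the core bound by many homeodomain factors, 2 sequences bound by Nkx2-1 type factors, CTCAAG as well as CAAGTG, the GC box GGGCGG and the TATA box letters TATAAA. Among the 32851 promoters of the RefSeq table the share with a match was 4.84% for TAATTA, 13.3% for CTCAAG, 11.6% for CAAGTG, 32.7% for GGGCGG and 12.4% for TATAAA. Of the 8 promoter entries of the members, 3 of them for Lhx6, CTCAAG was found in that of Dlx1 and GGGCGG in those of Nkx2-1 and Dlx2 and in 2 of Lhx6. None of the 8 windows held TAATTA, and none held the motif CAAGTG or the TATA box letters. The Six3 and Lhx8 windows held none of the 5 motifs, and no inference about any factor is drawn from that. The windows of Dlx1 and Dlx2 held 22 and 24 CG pairs, those of Nkx2-1 and Six3 9 and 10 and that of Lhx8 4, beside a median of 6 over all promoters.

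The deposited values were log2 normalised counts from which the mean of the paired libraries had been subtracted, so that a table gives the ratio of its libraries and not their level. A ratio is knockdown minus control on the log2 scale within the table of a day. Means ± SD are over 9 days, since the study left day 6 out of its pathway analysis, and day 6 is given beside them. Normalised counts at or below 1 had been set to 1 before the log, which understates the ratios of low genes. For 7 of the 8 members the read counts behind the ratios could be inferred, because the values of low genes fall on a lattice of whole reads and of steps of 1/49 of a read. Between 10 and 20 of the 20 libraries of each of the 7 then held whole reads within 0.004 reads, apart from rounding. The counts of a library are set side by side as normalised read counts, that is reads divided by a size factor relative to the median library. These factors ranged from 0.823 to 1.60, and the total reads of a library were not used here. Hprt itself was lower in the knockdown library on 10 of 10 days, at 0.0624 of the control level on average, with an SD of 0.89 on the log2 scale (n = 9 days, exact sign-flip permutation test, two-sided, p = 0.00391, the smallest that 9 days allow).

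Nkx2-1 transcripts were high in the knockdown line from day 0 and low in the control line on most days. The inferred reads of the knockdown line were 1294, 1041, 484, 231 and 323 over days 0 to 4, then 245, 726, 288, 78 and 98 over days 6 to 14. Those of the control line were 0 on day 0, at the floor, then 92, 50.3, 20 and 4 over days 1 to 4 and 214, 3, 34, 8 and 7 over days 6 to 14. The control level thus did not stay near 0, and the control library of day 6 held more Nkx2-1 reads than any other control library. In normalised counts the knockdown line ranged from 89.8 to 1021 and the control line from 0 to 81.0 over 9 days, without overlap. With day 6 the lines overlapped, since the control library stood at 208 and the knockdown library at 255 on that day.

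The Nkx2-1 ratios of days 0 to 4 were 10.06, 3.63, 3.27, 4.33 and 6.68, and those of days 6 to 14 were 0.27, 7.74, 3.39, 3.99 and 4.19. Its mean was 5.25 ± 2.37 (SD, n = 9 days), a 38.1-fold difference. The ratio of day 0 was set by the floor, and against a floor of 3 reads in the control library of that day Nkx2-1 was at least 291-fold higher in the knockdown. That bound takes the knockdown reads as exact, and with counting error on both sides the lower 95% limit of the day 0 ratio (Clopper-Pearson) was 7.90 on the log2 scale. With day 0 at that bound the mean was 5.04 ± 1.94, and without day 0 it was 4.65 ± 1.64. The 3 highest ratios fell on the days with 0, 3 and 4 control reads, where counting alone leaves the ratio wide. On day 8 the 95% interval of the ratio (Clopper-Pearson, counting error only) ran from 6.18 to 10.02, and on day 1, with 92 control reads, from 3.32 to 3.96. On day 6 it ran from -0.007 to 0.53. Among the genes past the filter on low values, the next below Nkx2-1 in mean ratio were Cxcl15 at 4.57 ± 1.67 and Ptgs1 at 4.47 ± 1.06.

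**Figure D1:**
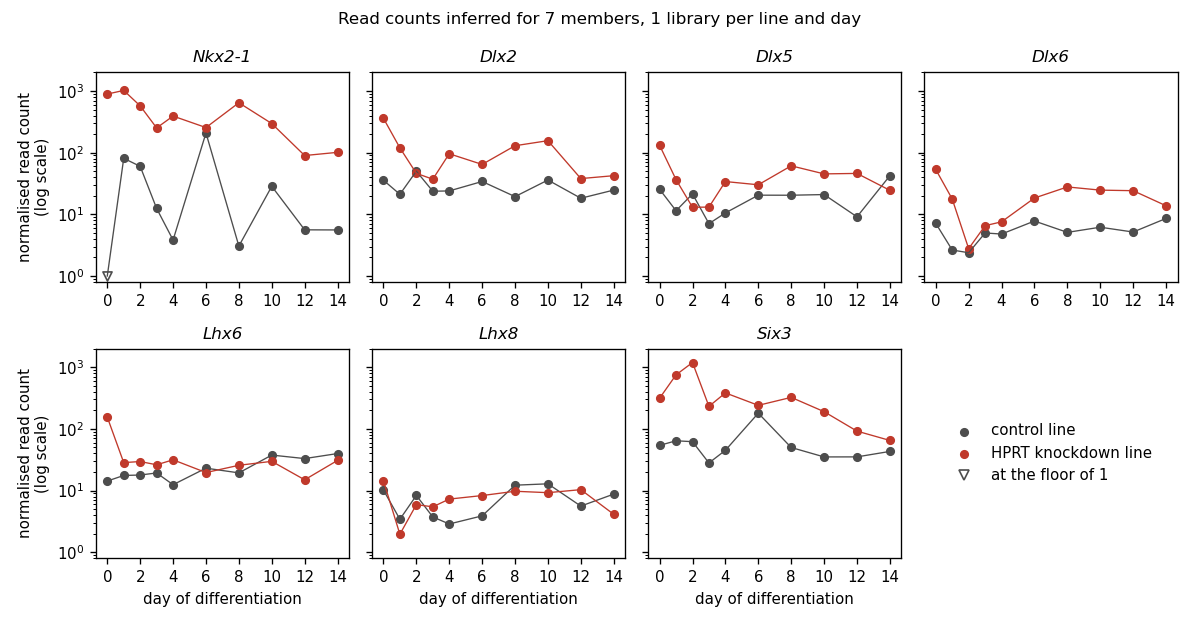
Normalised read counts (log axis) of the 7 members with inferred reads, by day of differentiation, with 1 point per library, control in grey and HPRT knockdown in red; the open triangle is a library at the floor. Nkx2-1, Dlx6 and Six3 were above the control on every day, and the control libraries of Nkx2-1 and Six3 peaked on day 6 at 208 and 180.

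Six3 followed Nkx2-1 as the second highest member in mean ratio, at 2.63 ± 1.10 (SD, n = 9 days). Its knockdown reads were 457, 768, 1007, 212 and 316 over days 0 to 4, then 232, 366, 185, 80 and 63 over days 6 to 14. Its control reads were 53, 73, 52.1, 45 and 47 over days 0 to 4, then 185, 49, 42, 50.2 and 54.1 over days 6 to 14. The control level of Six3 stayed between 28.1 and 64.2 normalised reads on 9 days and stood at 180 on day 6. The knockdown level rose to 1192 on day 2 and came down to 65.0 on day 14, just above the highest control value outside day 6. The ratio accordingly went from 4.27 on day 2 to 0.60 on day 14, and was 0.40 on day 6. The antisense gene Six3os1 (chr17:85999991-86017736, minus strand) overlaps Six3 by 4789 bases, of which 106 are exonic in both. The library kit did not mark strand, so reads from the shared stretch cannot be told apart. The ratio of Six3os1 was 2.96 ± 1.49, between 0.26 at day 14 and 4.48 at day 2 (limma adjusted p = 0.000553, higher on 10 of 10 days).

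The Dlx genes, listed by their linked pairs, were higher in the knockdown on most days, with the lowest ratio on day 2 in Dlx1, Dlx2 and Dlx6 and on day 14 in Dlx5. Dlx2 reads of the knockdown line were 524, 122, 39, 34 and 79 over days 0 to 4, then 62, 146, 152, 33 and 41 over days 6 to 14. Those of the control line were 35, 24, 42, 38 and 25, then 35, 19, 43, 26 and 31 on the same days. The control libraries of Dlx2 lay between 18.2 and 50.1 normalised reads, and the knockdown line exceeded 100 normalised reads on days 0, 1, 8 and 10. Its ratios were 3.35, 2.48, -0.11, 0.65 and 2.00 over days 0 to 4 and 0.89, 2.76, 2.12, 1.05 and 0.78 over days 6 to 14, and their mean without day 6 was 1.68 ± 1.14 (SD, n = 9 days). The lines overlapped in Dlx2, since the knockdown libraries of days 2, 3, 12 and 14 stood below the highest control library.

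Dlx1 could be given as ratios only, since no read counts reproduced its values. Its ratios were 3.75, 3.36, 0.28, 0.51 and 1.66 over days 0 to 4 and 0.94, 2.72, 1.65, 1.76 and 1.25 over days 6 to 14, and their mean without day 6 was 1.88 ± 1.19 (SD, n = 9 days). The Dlx1 and Dlx2 ratios went together over the 10 days with Pearson r = 0.92, as a description of days that share libraries. Relative to control day 0, joined Dlx1 values of the control line ran from -0.97 to 0.46 and those of the knockdown line from 3.75 on day 0 through -0.13 on day 3 to 2.21 on day 8. The antisense gene Dlx1as (chr2:71354511-71375948, minus strand) covers the whole of Dlx1 and shares 335 exonic bases with it. Its ratio was 2.48 ± 1.47, above 0 on 10 of 10 days, and it did not pass the filter on low values. Reads of Dlx1 and Dlx1as cannot be told apart where they overlap.

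Dlx5 was the least raised Dlx gene. Its knockdown reads were 191, 37.2, 11, 12 and 28 over days 0 to 4, then 29, 68.9, 44, 40 and 23.7 over days 6 to 14. Its control reads ranged from 11 to 25 on all days but day 14, when there were 53. The ratio was therefore -0.71 on day 2 and -0.78 on day 14 and above 0 on the other 8 days, with a mean of 1.13 ± 1.17 (SD, n = 9 days).

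Dlx6 had few reads. The control line had 2 to 10.8 reads per library and the knockdown line 77.5 at day 0, 2.35 at day 2 and 31.3 at day 8. Its ratio was above 0 on 10 of 10 days, lowest at day 2 (0.23) and highest at day 0 (2.91), and its mean was 1.59 ± 1.08 (SD, n = 9 days). On day 2, with 2 reads on each side after rounding, the counting interval of the ratio ran from -3.79 to 3.79. Dlx6os1, an antisense gene that covers Dlx6 (chr6:6770189-6819533, minus strand) and shares no exonic bases with it in this annotation, had 333 knockdown reads on day 0 beside 10 in the control. Its ratio was 2.55 ± 1.59, with its only negative value, -0.42, on day 2, where it had 3 and 4 reads.

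**Figure D2:**
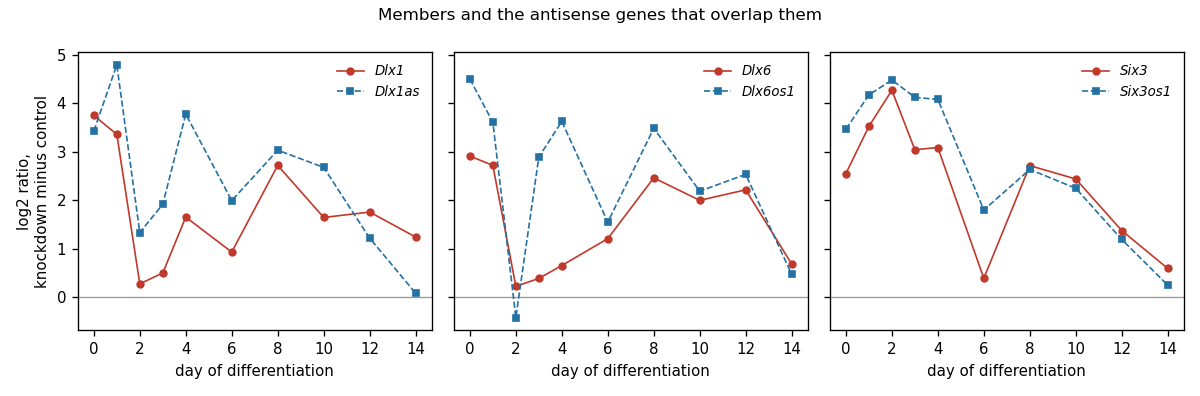
Log2 ratio, knockdown minus control, by day for Dlx1, Dlx6 and Six3 (red circles) and the antisense genes Dlx1as, Dlx6os1 and Six3os1 that overlap them (blue squares), 1 ratio per day. On day 2 Dlx1as stood at 1.34, Dlx6os1 at -0.42 and Six3os1 at 4.48.

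Lhx6 differed between the lines mainly on day 0, and the Lhx8 ratios took both signs. Lhx6 reads of the knockdown line were 226 on day 0 and 13 to 29.9 on every later day. Those of the control line were 14, 20, 15, 31 and 13 over days 0 to 4, then 23.7, 19, 45, 47.1 and 50 over days 6 to 14. The ratio was 3.46 on day 0, between 0.43 and 1.34 on days 1 to 4 and 8, -0.26 on day 6 and -0.33, -1.15 and -0.36 on days 10, 12 and 14. Its mean was 0.58 ± 1.31 (SD, n = 9 days), and without day 0 it was 0.22, so day 0 alone set the size of the mean. Lhx8 had 3 to 15.4 reads per control library and 2 to 21 per knockdown library. Its ratio was above 0 on 5 of 10 days, and its mean was 0.01 ± 0.83 (SD, n = 9 days). On each of the 10 days the counting interval of the Lhx8 ratio included 0, with a median width of 3.87 log2 units, so a difference of the size seen in the Dlx genes was not detectable on most single days. The neighbouring genes of Lhx6 were Morn5, 2231 bases away, with a ratio of 1.96 ± 1.26 and under the filter, and Rbm18, 10670 bases away, at 0.25 ± 0.19 (limma adjusted p = 0.0156).

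**Figure D3:**
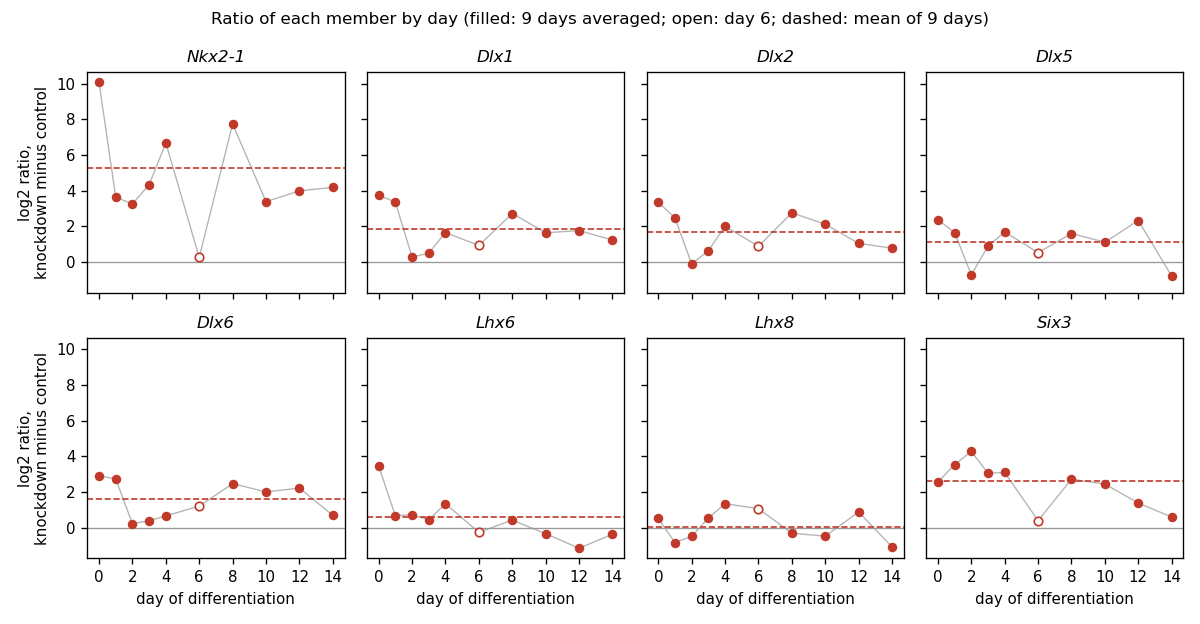
Log2 ratio, knockdown minus control, of each member by day of differentiation; filled points are the 9 days averaged, the open point is day 6 and the dashed line is the mean of 9 days. Nkx2-1 spanned 0.27 to 10.06, and Lhx6 and Lhx8 crossed 0.

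The filter on low values asked for a typical log2 normalised count of at least 4, taken over the tables of both lines together. A gene low in the control line can therefore pass through its knockdown level. Nkx2-1 had a median of 5.61 normalised reads in the control line over 9 days, and 89.8 to 1021 in the knockdown line. Whether it would pass on control tables alone was not tested. Set among all genes, 6 of the 8 members were among the 13610 genes past the filter, while Dlx6 and Lhx8 were not. In the limma fit of the ratio across those genes 5 of the 6 were called higher, with 26.2% of all genes called higher and 52.5% called in either direction. Since the members were picked in this contrast, nothing is read from that count. The same holds for the day counts, gaps between lines and ranks that follow, which are a description. The ratio was above 0 on all 10 days in 4 of the 8 members, Nkx2-1, Dlx1, Dlx6 and Six3, and among those past the filter in 3 of 6, beside 6.49% of all genes past it. The 9 knockdown libraries lay above all 9 control libraries for Nkx2-1 and Six3, by 0.15 and 0.02 on the log2 scale of normalised reads. The same held for 3.22% of all genes in values joined across tables. The gap of Nkx2-1 in joined values was 0.43, and those values pass through the control library of day 0, at the floor. With day 6 added neither stood apart, and the overlap in normalised reads was 1.21 for Nkx2-1 and 1.47 for Six3. By mean ratio Nkx2-1 ranked 1 and Six3 ranked 66 of the 13610 genes. The order of the means was Nkx2-1, Six3, Dlx1, Dlx2, Dlx6, Dlx5, Lhx6 and Lhx8. Neighbours in this order from Six3 downward differed by less than 1 SD over days of either neighbour.

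**Figure D4:**
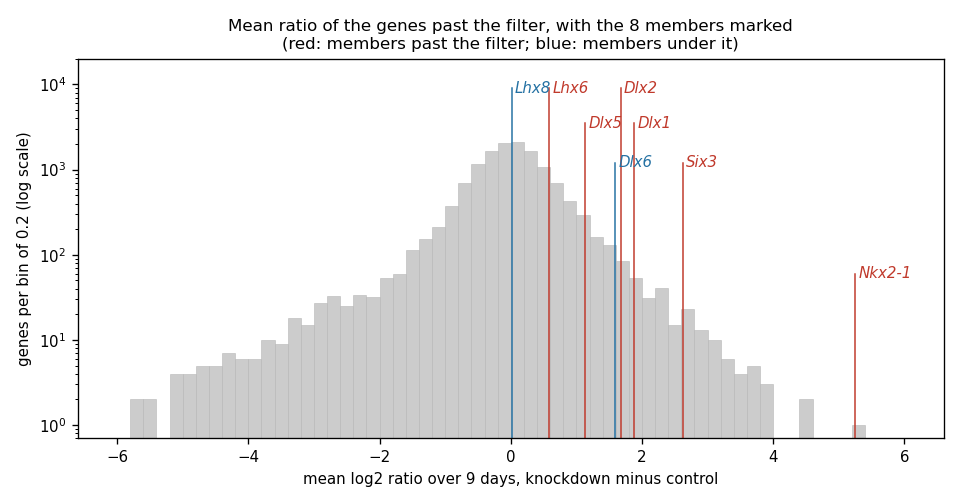
Number of genes (log axis) by mean log2 ratio over 9 days, knockdown minus control, for the 13610 genes past the filter, in bins of 0.2, with lines at the members. Nkx2-1 sits at 5.25 at the far right, Six3 at 2.63, and Lhx8 at 0.01 in the middle of the distribution.

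The course over time within a line did not enter the choice of Nkx2-1, and it was tested as a slope on day over 9 libraries with limma. Those libraries are successive collections of 1 line and not independent replicates. The adjusted p of a slope therefore does not measure variation between separate cultures. Nkx2-1 fell in the knockdown line by 0.20 ± 0.05 (SE) log2 units per day (limma adjusted p = 0.0284), from 891 normalised reads on day 0 to 101 on day 14. Six3 fell there by 0.22 ± 0.05 per day (limma adjusted p = 0.0282), from 315 to 65.0. These were 2 of the 6 members tested, and 5.53% of all genes fell in the knockdown line at that threshold. Whether the 2 slopes passed the threshold rested on single libraries, while both stayed negative. With 1 day left out the slope ran from -0.22 to -0.17 for Nkx2-1 and from -0.26 to -0.19 for Six3. For Nkx2-1 the adjusted p was 0.0612 without day 2, 0.0892 without day 12 and 0.139 without day 14, and for Six3 it was 0.0531 without day 10, 0.0873 without day 12 and 0.149 without day 14. Against log2(day + 1) the limma adjusted p was 0.103 for Nkx2-1 and 0.161 for Six3. The Nkx2-1 value of the same library also differed by up to 0.13 between tables, in those of the knockdown line between days 0 and 3.

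In the control line Lhx6 rose by 0.13 ± 0.02 (SE) log2 units per day (limma adjusted p = 0.000864), from 14.3 normalised reads on day 0 to 39.9 on day 14, and 19.7% of all genes rose there. The joined control values take in the table of days 3 and 4, which was at odds with the others. With the step from day 3 to day 4 through the knockdown tables the Lhx6 slope was 0.11 (limma adjusted p = 0.00416). The call of Lhx6 held in all 14 alternatives, among them that step and leaving out each day. Adding day 6, which is the mean of the days used, or dropping the filter cannot move the slope, which stayed at 0.13. Stability is not read from those settings. The slope of Lhx6 in the knockdown line was -0.10 ± 0.05 (limma adjusted p = 0.225), and without day 0 it was -0.03. The slope of Six3 in the control line was -0.03 ± 0.02 (limma adjusted p = 0.332). No test is given for Nkx2-1 in the control line, where its median was 5.61 normalised reads and day 0 was at the floor; its slope there was -0.06 with day 0 and -0.20 without it, beside -0.20 in the knockdown line. Dlx1, Dlx2 and Dlx5 passed in neither line. Their slopes were between -0.05 and 0.01 per day in the control line, with SE of 0.03 to 0.05 and adjusted p from 0.218 to 0.853, and between -0.09 and -0.005 in the knockdown line, with SE of 0.07 to 0.08 and adjusted p from 0.383 to 0.975. With 1 day left out the knockdown slopes ran from -0.12 to -0.02 for Dlx1, from -0.12 to -0.03 for Dlx2 and from -0.04 to 0.07 for Dlx5, each highest without day 0, and the Dlx5 slope in the control line ran from -0.06 to 0.06. With the step from day 3 to day 4 through the knockdown tables, the control slopes of Dlx1, Dlx2 and Dlx5 were -0.02, -0.03 and 0.05. Whether slopes differed between the lines was not tested. On day 14 the knockdown levels of Dlx2, Lhx6 and Dlx5 were 8.52-fold, 5.03-fold and 5.36-fold lower than on day 0. By day 2 they already stood at 46.2, 29.6 and 13.0 normalised reads. The fall was not steady in Dlx2 and Dlx5, which stood at 156 normalised reads on day 10 and 61.2 on day 8.

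Genes with a ratio course most like that of Nkx2-1 over the 10 days, among those past the filter, were Ptgs1, a cyclooxygenase (r = 0.99), Ahnak, a large scaffold protein (0.94), Unc45b, a myosin chaperone (0.94), Pde1a, a phosphodiesterase (0.93), and Nbeal1 (0.92). The days share libraries and the day 0 ratio weighs heavily; without day 0 these r were 0.97, 0.89, 0.89, 0.88 and 0.86. Ptgs1 was at 4.47 ± 1.06 and Pde1a at 2.94 ± 0.81 in mean ratio, whereas Unc45b was at -3.72 ± 2.29. The other members were less alike, from r = 0.74 for Lhx6 to 0.08 for Lhx8, and without day 0 Lhx6 was at 0.42.

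Relatives of the members in the same families moved in both directions. Nkx2-2, a factor of the ventral neural tube, was higher at 3.42 ± 1.88 (limma adjusted p = 0.000872, 10 of 10 days), with its lowest ratio, 0.31, on day 0 and its highest, 5.64, on day 10. Nkx2-4, a close relative of Nkx2-1, was at 2.87 ± 1.78 and above 0 on 10 of 10 days but under the filter, with its highest ratio, 5.93, on day 0. Six6, a factor of the eye field and pituitary, was higher at 2.28 ± 1.22 (limma adjusted p = 0.000763), and Lhx2 at 0.74 ± 0.62 (0.00938). Lhx1 was lower at -3.33 ± 1.36 (limma adjusted p = 0.000199, 10 of 10 days). Nkx2-9 at -0.20 ± 0.99, Dlx3 at -0.39 ± 1.48 and Dlx4 at 0.64 ± 1.51 did not pass the test or the filter.

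Genes of the ventral patterning list were more often called higher than lower in the knockdown. This list and those after it were drawn up with earlier results of these data known, so their shares are a description. The shares called are set beside 26.2% of all genes called higher and 26.3% called lower. Of the 20 genes listed 17 passed the filter, of which 9 (52.9%) were higher, 2 (11.8%) were lower and 6 did not pass the test, with a median ratio of 0.76 beside 0.01 over all genes. The morphogen Shh was higher at 3.59 ± 1.68 (limma adjusted p = 0.000392, 9 of 9 days), and so were Olig2, a factor of motor neuron and oligodendrocyte progenitors, at 3.02 ± 1.44 (0.000426) and Foxa1, a floor plate and endoderm factor, at 2.77 ± 0.75 (3.42e-05). Ptch1, the Shh receptor and a target of the pathway, was higher at 0.76 ± 0.59 (0.00592), while Gli1, another target, was at -0.68 ± 1.22 (0.144). Gli2 was lower at -1.40 ± 0.65 (0.000414).

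Genes of subpallial neurons and interneurons, among which are many that follow Dlx and Lhx6 expression in the embryo, were split. Of the 30 listed 25 passed the filter, of which 5 (20.0%) were higher, 11 (44.0%) were lower and 9 did not pass, with a median ratio of -0.35. Sox6, a factor of interneurons from the medial ganglionic eminence, was higher at 2.74 ± 1.42 (limma adjusted p = 0.000644). Its ratio was 1.10 on day 0 and 4.73 on day 10, where Nkx2-2 stood at 0.31 and 5.64 and Olig2 at 0.48 and 5.05. Which cells held the Sox6 transcripts was not tested. The neuropeptide gene Sst was lower at -4.73 ± 1.67 (0.000105), the calretinin gene Calb2 at -4.45 ± 1.26 (3.77e-05) and Sp8 at -3.12 ± 0.67 (1.29e-05).

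Of the 20 dorsal forebrain genes 14 passed the filter, of which 3 (21.4%) were higher, 10 (71.4%) were lower and 1 did not pass, with a median ratio of -1.28. Neurog1 was lower at -3.60 ± 1.44 (limma adjusted p = 0.000183) and Lhx5 at -2.66 ± 2.56 (0.0151). Lmx1a was higher at 2.32 ± 1.01 (limma adjusted p = 0.000283) and Emx2 at 1.12 ± 0.56 (0.000641). The Lmx1a ratio was highest on day 4, at 4.41, the day of the highest Shh and Foxa1 ratios, 5.83 and 4.13. Of the 20 genes of hypothalamus and eye field 8 passed the filter, with 3 (37.5%) higher and 5 (62.5%) lower. Six6, Fezf1 at 1.60 ± 0.89 (0.000963) and Barhl2 at 1.07 ± 0.70 (0.00241) were the higher ones. Otp, a factor of hypothalamic neurons, was lower at -4.95 ± 1.60 (6.8e-05), Trh at -3.16 ± 2.25 (0.00342) and Nr0b1 at -2.68 ± 2.04 (0.00476). Trh and Nr0b1 had their lowest ratios on day 1, at -8.31 and -7.14. On that day the pluripotency marker Pou5f1 also had its lowest ratio, -6.83. A part of pluripotent cells in the Trh and Nr0b1 ratios was not tested. Avp and Hcrt were at the floor in all 28 tables.

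Nkx2-1 is also a factor of lung and thyroid, and the genes of those organs were mostly low. Of the 20 listed 7 passed the filter, of which 4 (57.1%) were higher, 2 (28.6%) were lower and 1 did not pass, with a median ratio of 1.18. Those higher were Cxcl15 at 4.57 ± 1.67 (limma adjusted p = 0.000121), Tshr at 2.05 ± 1.32 (0.00203), the ciliary factor Foxj1 at 1.52 ± 0.95 (0.00184) and Abca3, a lipid transporter, at 1.18 ± 0.17 (8.1e-06). The surfactant genes Sftpa1, Sftpb, Sftpc and Sftpd, the secretory gene Scgb1a1 and the thyroid gene Tg were all under the filter, and Pax8 was lower at -2.76 ± 2.23 (0.0065).

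**Figure D5:**
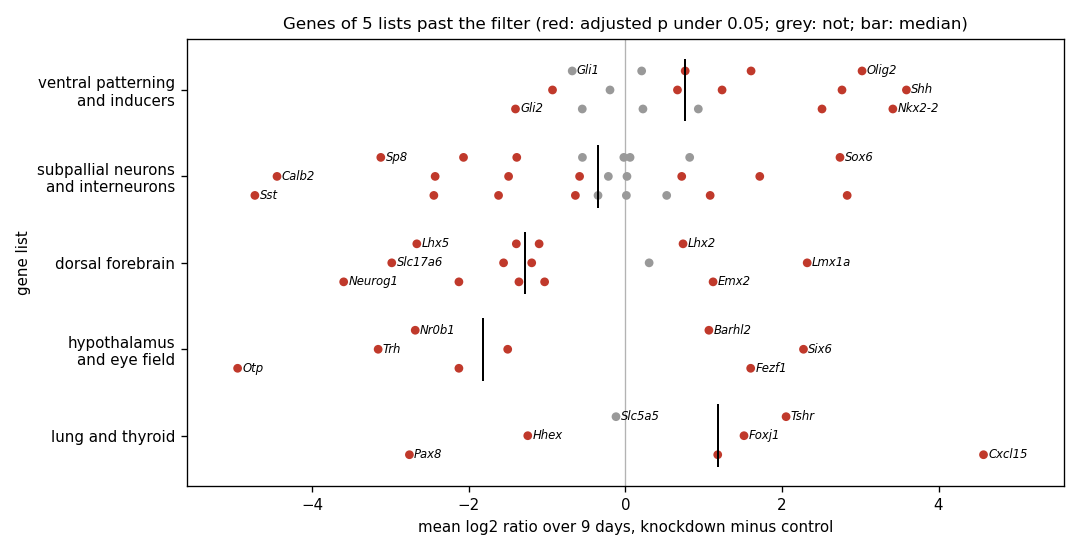
Mean log2 ratio over 9 days, knockdown minus control, of the genes past the filter in 5 lists, 1 point per gene, red where the limma adjusted p was under 0.05, with the list median as a bar. The medians are 0.76 for ventral patterning, -0.35 for subpallial neurons, -1.28 for dorsal forebrain, -1.81 for hypothalamus and eye field and 1.18 for lung and thyroid.

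Markers of the cell types that these cultures could hold moved as well, and their part in the members' ratios was not tested. All 6 markers of pluripotent cells passed the filter and were lower, with a median ratio of -2.81 and daily medians from -7.76 to 0.26. Of 5 neuronal markers with rows 3 were lower, Tubb3 at -1.88 ± 0.98, Dcx at -1.99 ± 1.24 and Stmn2 at -2.01 ± 1.00, with daily medians from -2.95 to 0.18. Of 6 markers of neural progenitors Sox2 was higher at 0.52 ± 0.57 and Pax6 lower at -1.36 ± 0.74, with a median of 0.04. Of 6 fibroblast markers, which the feeder cells would express, 2 were lower, Postn and Lum, and 4 did not pass, with a median of -0.47. Of 6 endoderm markers 4 passed the filter, of which Foxa1 was higher, Sox17 lower at -1.89 ± 2.40 and Gata4 and Gata6 passed in neither direction. Of 6 markers of the oligodendrocyte lineage Pdgfra was higher at 0.73 ± 0.69 and 5 did not pass the test, with a median of 1.75. Their daily median changed sign over time, from its lowest value, -1.89 on day 0, to its highest, 6.38 on day 14. No marker had all its tables at the floor, and levels of the markers were not inferred.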

How the data were processed

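RNA of 20 libraries was measured by RNA-seq. Per the study's methods the authors sequenced TruSeq libraries on an Illumina HiSeq instrument, aligned reads with ELAND in CASAVA 1.8.2 to the mm9 genome, and counted and DESeq-normalised genes in Avadis NGS, with exons found anew and partial reads included. They deposited log2 values in 28 tables of 2 libraries each, 10 of the same day and 9 of consecutive days per line, each normalised separately and centred on the mean of its libraries. The sequencing lane of a library is not given in the sources used here.

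The 8 members and the gene lists were chosen with earlier results of these data known. Groups came from the labels. A gene passed the filter when the rounding step of its single-precision values corresponded, at the median over tables, to a log2 count of at least 4. Size factors and reads were inferred from the lattice of low values, and the method recovered simulated counts to within 1 read. Ratios of 9 days were fitted with limma 3.58.1 in R 4.3.3 (lmFit, eBayes) with Benjamini-Hochberg adjustment over 13610 genes and a threshold of 0.05, and slopes on day were fitted to consecutive-day tables joined within a line; both fits were tested on simulated data. The libraries of a day were paired because the study took differences between the lines within a time point. Whether the lines were collected side by side is not stated. Deviations from the line means correlated across genes with r from 0.13 to 0.41 on 8 of 9 days and -0.03 on day 0. The control table of days 3 and 4 was at odds with the others, with 0.0294% of genes closing the loop of 4 tables against at least 90.4% in the other 8 loops. Motifs were counted in 250 bases before RefSeq gene starts. The design had foreseen counts or FPKM as other possible units.

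Named genes were Hprt, the members, genes that overlap, neighbour or belong to the family of a member, from each list at most the 3 genes with the highest and the 3 with the lowest mean ratio past the filter, and the 5 genes most like Nkx2-1 in ratio over the 10 days. Others named from the lists were chosen after their values were seen. A few genes are not reported here by name, and the counts and medians of their lists include them.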

Additional observations from a re-analysis of the deposited data

Results flagged for a closer look

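Of 22 sets of 10 values examined, the daily ratios of the 8 members and the normalised read counts of 7 members in each line, 2 had a day far from the other 9 by Dixon's test; chance flags about 1 in 20 such sets. Lhx6 stood at 155 normalised reads in the knockdown library of day 0, where the gap to the next day took up 0.688 of the whole range on the log2 scale. Six3 stood at 180 normalised reads in the control library of day 6, with a gap of 0.558 of the range. The days of a line are a time course and not replicates, and no cause was tested.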

How the results depend on the processing

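The mean ratio of each member moved by less than its SD over days with all 10 days, centring, and inferred reads with a pseudocount of 1 or 0.5. The same held without the replicate block, where that could be fitted. Leaving out 1 day or taking the median over days cannot move a mean by its SD, so stability is not read from those settings. Without day 0 the mean of Lhx6 went from 0.58 to 0.22 and that of Nkx2-1 from 5.25 to 4.65. As a median over days Nkx2-1 stood at 4.19. The cause of the changes below was not tested unless stated. With a log2 count of at least 8, where fewer genes were tested, 2366 genes instead of 3562 were called higher in the knockdown, and 1498 instead of 2681 rose in the control line. Against log2(day + 1), 1785 genes rose and 2144 instead of 3252 fell in the control line, and 80 instead of 1034 rose and 47 instead of 752 fell in the knockdown line. With all 10 days 477 fell in the knockdown line. Leaving out 1 day gave 113 to 1423 rising and 58 to 1535 falling genes there, lowest without day 14 and highest without day 0, so the share of genes with a trend in the knockdown line depends on single days. Without the replicate block by day, 3142 genes were higher and 2688 lower, beside 3562 and 3580. The sign-flip test called 3290 and 3381. The slope of Six3 in the control line passed without day 3 (-0.04 per day, limma adjusted p = 0.0452). No result past its threshold changed sign. Among values with no call, the mean ratio of Lhx8 was -0.31 as a median over days and -0.15 to 0.15 with 1 day left out, the knockdown slope of Dlx5 was 0.07 without day 0 and 0.03 without day 14, its control slope was -0.06 without day 14 and -0.07 against log2(day + 1), and the control slope of Nkx2-1 was 0.03 without day 1. Dlx1 has no value from inferred reads, and Dlx6 and Lhx8 none without the block. Read depth limits Dlx6 and Lhx8, whose counting intervals were up to 7.57 and 6.27 log2 units wide.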

Other observations

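Rax, an eye field gene chosen here after its values were seen, had a mean ratio of 4.47 ± 2.42 (SD, n = 9 days) and was under the filter on low values, so it was not tested. Within the ventral patterning list Olig1, at 2.51 ± 1.01, and Nkx6-2, at 1.61 ± 0.72, were also higher in the knockdown on 9 of 9 days (limma adjusted p = 0.000196 and 0.000352).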
